A study of Rattus norvegicus with 44 samples.

Results

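A set of 10 genes of peptide signalling was followed through the hippocampus of rats given repeated endotoxin and of aged rats. They are the neuropeptide precursor genes Penk, Pdyn, Cck, Tac1, Tac3, Adcyap1 and Crh, the granin family genes Vgf and Scg2, and the peptide receptor gene Trhr. They were chosen by symbol, and all 10 had a row in both tables, among 20171 symbols present in at least 1 of them. All 10 also passed the filter on low values in both regions. RNA was measured in 2 subregions, CA1 and the dentate gyrus (DG), taken from 1 hippocampus of each of 22 male rats, so every rat gave a CA1 and a DG library. The 3 groups were young vehicle rats of 5 to 7 months given saline (n = 8), young LPS rats of the same age given lipopolysaccharide, a bacterial endotoxin, at 1 mg per kg (n = 8), and aged vehicle rats of 14 to 16 months given saline (n = 6). Every rat, controls included, had an intraperitoneal injection once a week over 7 weeks, and hippocampi were collected 48 hours later. The strain is not given in the sources used here, and there was no aged LPS group. The series set young LPS against young vehicle, aged vehicle against young vehicle, and young LPS against aged vehicle, the last to ask how peripheral inflammation and age compare.

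Neuropeptides are cut from longer precursors inside dense core vesicles and released from them during sustained firing. Granins are acidic proteins that help to form these vesicles and are themselves cut into peptides. In the hippocampus, dynorphins and enkephalins are known from granule cells and their mossy fibres, while cholecystokinin, tachykinins and corticotropin releasing hormone are known from sets of GABAergic interneurons, and several of these genes are also transcribed in pyramidal cells.

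Vgf, Scg2 and Pdyn promoter sequences are printed because Vgf and Scg2 varied in opposite directions between CA1 libraries while Pdyn varied with Scg2 (values further on). Promoters were read from the RefSeq table of the GRCr8 build, which held 5 of the 10 genes (Adcyap1, Pdyn, Scg2, Tac1 and Vgf); Penk, Cck, Tac3, Crh and Trhr are named only. The window covers the 150 bases before the annotated start, written 5′ to 3′ on the gene's strand, which is the minus strand for all 3, at chr12:25277021-25277170 for Vgf, chr9:88256867-88257016 for Scg2 and chr3:137366504-137366653 for Pdyn. Capitals mark the palindromic cyclic AMP response element TGACGTCA and the letters TATAAA of the TATA box, wherever they lie.
Vgf: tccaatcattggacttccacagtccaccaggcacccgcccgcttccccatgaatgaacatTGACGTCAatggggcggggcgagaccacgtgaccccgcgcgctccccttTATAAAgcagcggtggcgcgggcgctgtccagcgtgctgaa
Scg2: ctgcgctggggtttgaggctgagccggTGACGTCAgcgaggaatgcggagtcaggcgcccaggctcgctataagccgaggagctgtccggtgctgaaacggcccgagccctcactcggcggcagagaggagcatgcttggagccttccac
Pdyn: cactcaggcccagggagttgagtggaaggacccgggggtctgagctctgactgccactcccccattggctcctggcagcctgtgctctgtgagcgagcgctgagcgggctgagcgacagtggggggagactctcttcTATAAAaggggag
Elements were searched over 250 upstream bases in every promoter, of which the 150 nearest the start are printed. TGACGTCA lay at -90 to -83 in Vgf and at -123 to -116 in Scg2, counted from the start, and in 1.59% of all 33469 promoters. It was not found in the searched bases of Pdyn, Tac1 and Adcyap1. The shorter element TGACG, searched on both strands and so included in every full element, was in 3 of the 5, with Tac1 as the added one, and in 18.2% of all promoters. The AP-1 element TGACTCA, searched with its complement TGAGTCA, was in 0 of the 5 and in 4.05% of all promoters. TATAAA or its complement TTTATA was in 3 of the 5 and in 12.9% of all promoters. TATAAA lay at -41 to -36 in Vgf, at -13 to -8, close to the annotated start, in Pdyn and far upstream at -248 in Adcyap1.

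Libraries held between 12130182 and 23519791 reads recovered from the deposited values. Values are the authors' normalized reads, scaled separately in each region. CA1 pyramidal markers (6 genes, Wfs1 among them) summed to group medians of 31847 to 39687 normalized reads in CA1 and 4162 to 10269 in DG, and granule cell markers (8 genes, Prox1 among them) to 2904 to 3908 in CA1 and 9339 to 9830 in DG, so each dissection carried its own region's markers and some of its neighbour's. By the mean log2 level of the granule markers, 3 CA1 libraries (young LPS rats 2403 and 2527 and aged rat 2412) stood below the other 19. By that of the CA1 markers, 6 DG libraries stood below the other 16. Markers of other tissue also varied in CA1. Choroid plexus markers summed to 9089 normalized reads in young vehicle rat 2526, where the young vehicle median was 90. Meningeal markers summed to 2051 in that rat and 1523 in aged rat 2532, with group medians of 641 and 703. Young LPS rat 2403 had the highest cortical (0.91) and thalamic (0.49) marker means on the log2 scale, and rat 2532 the lowest cortical one (-1.50). Aged rat 2532 had the lowest interneuron marker mean in CA1 (-0.73 on the log2 scale, against -0.17 in the next library). Its summed interneuron level there, 13296 normalized reads, lay within the aged range of 12119 to 14818. That library also had the fewest recovered reads in CA1, 12292346. In it 1 read was worth 1.46 normalized reads, against at most 1.17 in the other CA1 libraries. Fits without the 3 CA1 libraries, without CA1 libraries 2526 and 2532, or without the 6 DG libraries were added after seeing the data.

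Each gene had its own regional balance. Levels are compared here within a rat as RPM, a gene's reads relative to all reads recovered for that library, and as a description, because the tables were normalized separately. Pdyn, the dynorphin precursor, was higher in DG in 21 of 22 rats, with a median DG to CA1 ratio of 2.36. Scg2, which encodes secretogranin II, was higher in DG in 21 of 22 rats (median ratio 1.50), and Penk, the enkephalin precursor, in 18 (median ratio 1.48). These 3 genes were the ones with a DG bias in most rats of every group.

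CA1 held more of the other precursors. Cck, the cholecystokinin precursor, was higher in CA1 in 22 of 22 rats (median 2.90-fold), and Tac1, the precursor of substance P, in 21 (2.94-fold). Tac3, the neurokinin B precursor, was higher in CA1 in 20 of 22 rats (1.71-fold). Both exceptions were aged rats. Rat 2420 was near equal, with an RPM of 17.1 in CA1 and 18.0 in DG. Rat 2532, whose CA1 library had the fewest reads, had 8.05 and 14.8. Vgf, an activity-induced gene of the granin family, was higher in CA1 in 20 rats (1.67-fold), and Adcyap1, which encodes PACAP, in 18 (1.30-fold). Crh, the corticotropin releasing hormone precursor, was split at 11 and 11 rats, with only 6 to 38 reads in any library. Trhr, the receptor of thyrotropin releasing hormone, was higher in DG in 14 of 16 young rats and in 0 of 6 aged rats.

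**Figure D1:**
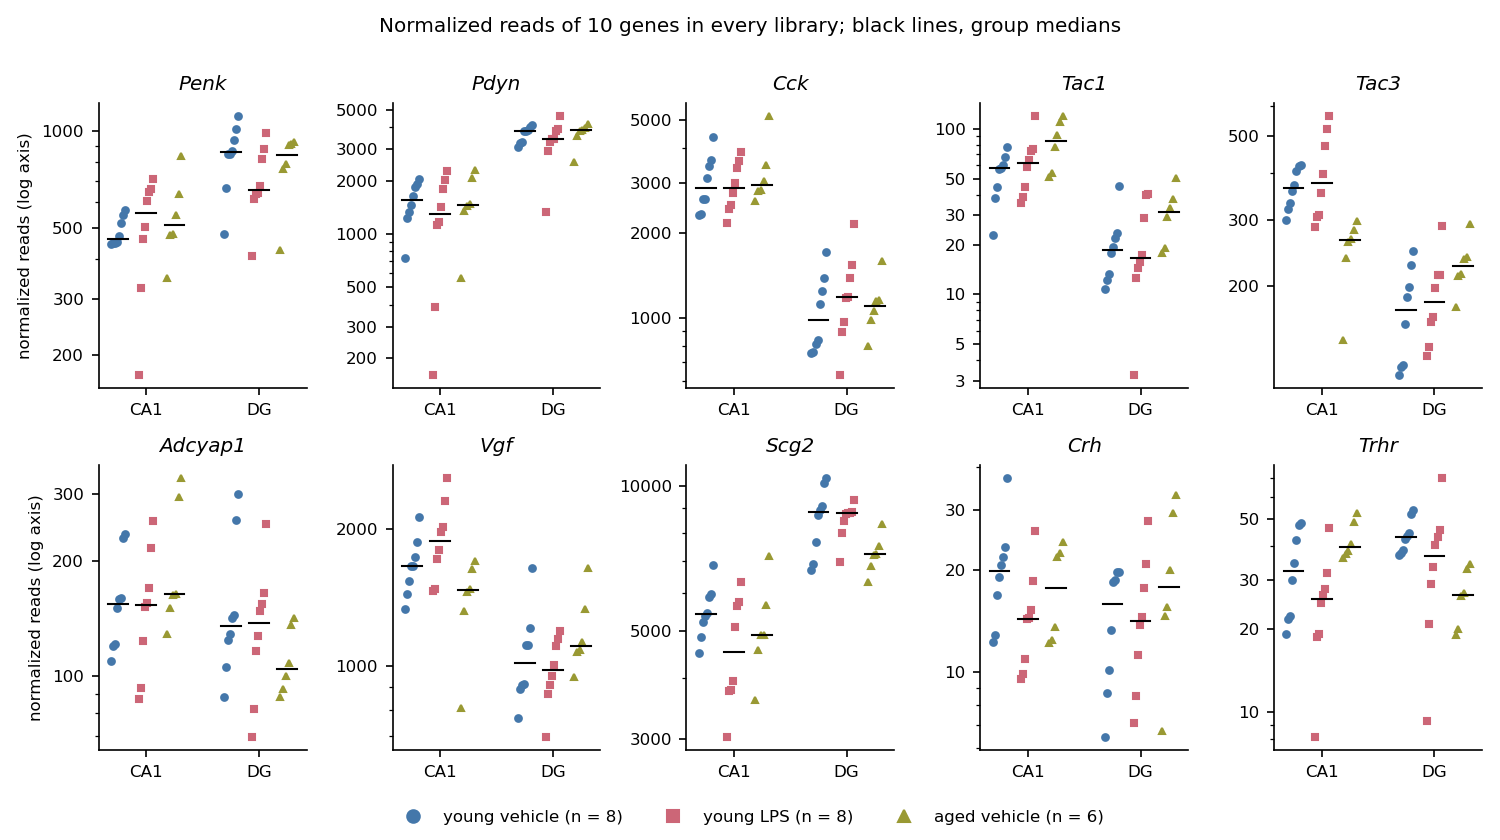
Normalized reads (vertical log axis) of each of the 10 genes in every CA1 and DG library, by group, with black lines at group medians. CA1 Tac3 of the 6 aged rats (144 to 298) lies below all 8 young vehicle rats (300 to 419), and DG Trhr of the aged rats (19.0 to 34.4) below all young vehicle rats (36.9 to 53.6).

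LPS left the 10 genes without a detectable difference in either region. In CA1, 0 of 10 passed an adjusted p of 0.05 with limma, 0 reached an unadjusted p below 0.05 (6.87% of all genes), and edgeR and DESeq2 called 0. Over the whole CA1 table limma called 0% of 14915 genes. In DG the same 4 counts were all 0, where limma called 0.0134% of 14904 genes and 7.53% reached an unadjusted p below 0.05. No gene of the 10 had LPS and vehicle libraries without overlap, which held for 0.0134% of all tested genes in CA1 and 0.0403% in DG. Median log2 differences of the 10 were -0.06 in CA1 (all genes 0.01) and -0.09 in DG (all genes -0.0041).

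Age gave 0 of 10 calls in both regions with limma, edgeR and DESeq2, against 0.0134% of all genes called by limma in CA1 and 0.0134% in DG. At an unadjusted p below 0.05 stood 2 genes in CA1 (Tac1 and Tac3), where 12.6% of all genes did, and 3 in DG (Tac3, Scg2 and Trhr), where 2.99% did. Aged and young vehicle libraries did not overlap for 1 of the 10 in CA1, Tac3 (0.235% of all tested genes), and for 1 in DG, Trhr (0.0738% of all). Young LPS against aged vehicle gave 1 call in CA1, Tac3, where limma called 8.73% of all genes, edgeR called 2 of the 10 (2144 of all genes) and DESeq2 3 (3263 of all genes). In DG it gave 0 calls with all 3 tools and 1 gene, Scg2, at an unadjusted p below 0.05 (9.1% of all genes), where limma called 0.0134% of all genes. Groups without overlap in this comparison numbered 0 of the 10 in both regions (0.838% of all genes in CA1, 0.443% in DG). The LPS and age comparisons share the young vehicle rats and the last comparison is made of both, so they are not independent. The limma p-values set each group difference against the spread between rats.

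**Figure D2:**
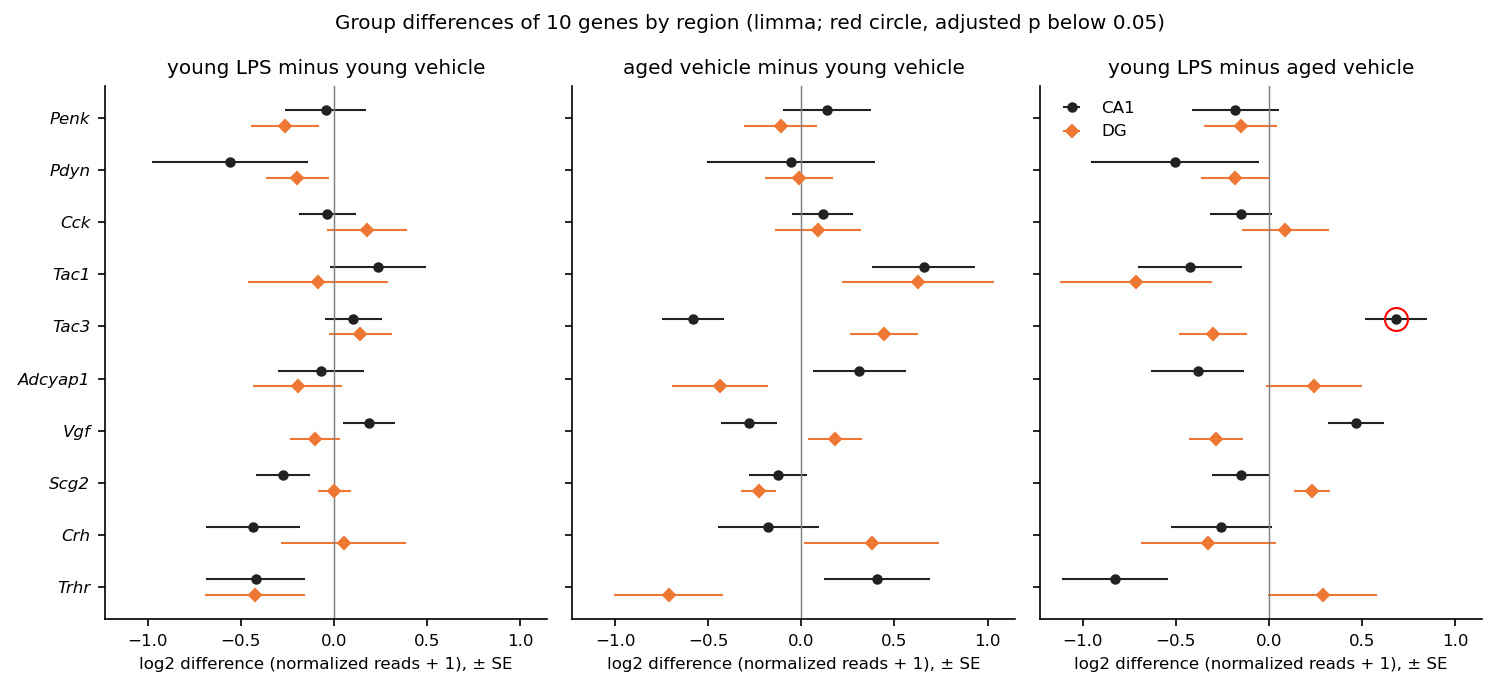
Log2 differences of the 10 genes (horizontal axis, normalized reads + 1) with standard errors, in CA1 (black circles) and DG (orange diamonds), for the 3 comparisons. Tac3 in CA1 between young LPS and aged vehicle is the 1 point circled in red as past the threshold, at 0.69.

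The opioid precursors Penk and Pdyn varied widely between CA1 libraries of a group. Pdyn in CA1 ran from 736 through a median of 1550 to 2032 normalized reads in young vehicle, from 160 through 1290 to 2251 in young LPS, and from 567 through 1456 to 2281 in aged vehicle. The 3 groups overlapped over most of their range. Its within-group SD was 0.93 on the log2 scale, where the median over all tested genes in CA1 was 0.32. The LPS difference was -0.56 (SE 0.42, limma adjusted p = 0.663). It was -0.18 (limma adjusted p = 0.815) without young LPS rat 2403, and -0.37 without young LPS rat 2527. It took the other sign, 0.10 (0.870), without the 3 CA1 libraries with the lowest granule markers, and 0.13 with a score of CA1 against granule markers in the fit. The age difference was -0.06 (SE 0.45, limma adjusted p = 0.957), and 0.21 (0.630) without those 3 libraries.

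In DG Pdyn was more even. Young vehicle ran from 3111 through 3797 to 4115, young LPS from 1327 through 3428 to 4637, and aged vehicle from 2532 through 3833 to 4165. Young LPS rat 2543 lay far under all other DG libraries. Penk in CA1 had medians of 461, 555 and 511 in young vehicle, young LPS and aged vehicle and ran from 173 to 834 over all 22 libraries. In DG its medians were 859, 657 and 845, with libraries from 410 to 1115. LPS minus vehicle was -0.26 (SE 0.18, limma adjusted p = 0.780) for Penk in DG and -0.20 (SE 0.17, limma adjusted p = 0.824) for Pdyn. Without rat 2543 these were -0.16 (limma adjusted p = 0.877) and -0.017 (0.984). In CA1 the Penk difference was -0.04, and 0.28 (limma adjusted p = 0.709) without the 3 libraries named above.

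Cck, a peptide of basket interneurons that pyramidal cells also transcribe, showed no group difference. In CA1 its libraries ran from 2313 through 2892 to 4386 in young vehicle, from 2172 through 2894 to 3878 in young LPS, and from 2604 through 2953 to 5194 in aged vehicle. In DG the medians were 982, 1185 and 1107 in that order, and libraries ran from 628 to 2161. All log2 differences of Cck within a region lay between -0.15 and 0.18, each with an SE of 0.15 or more.

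Tac1 was the lower of the tachykinin precursors in reads, with 4 to 125 reads per library. In CA1 it ran from 22.7 through 57.7 to 77.0 in young vehicle, from 35.6 through 61.8 to 119 in young LPS, and from 51.0 through 84.6 to 120 in aged vehicle. Aged libraries lay toward the top but overlapped both young groups. The age difference was 0.66 (SE 0.28, limma unadjusted p = 0.0267, adjusted p = 0.393). In DG the medians were 18.5, 16.6 and 31.3, and the age difference was 0.63 (SE 0.41, limma adjusted p = 1.00).

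Tac3 was the 1 member called by limma within a region, and its differences between aged and young rats had opposite signs in CA1 and DG. In CA1 it ran from 300 through 364 to 419 normalized reads in young vehicle, from 288 through 376 to 567 in young LPS, and from 144 through 265 to 298 in aged vehicle. All 6 aged libraries lay below all young vehicle libraries, and young LPS overlapped the aged range only through rat 2403, at 288. Aged minus young vehicle was -0.58 (SE 0.17, limma unadjusted p = 0.00183, adjusted p = 0.393), and with library weights in the fit it passed (-0.46, limma adjusted p = 0.0364). Young LPS minus aged vehicle was 0.69 (SE 0.17, limma adjusted p = 0.0490), and edgeR (adjusted p = 0.0342) and DESeq2 (adjusted p = 0.00659) called it too. LPS minus vehicle was 0.10 (SE 0.15, limma adjusted p = 0.809).

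The CA1 call for Tac3 sat at the threshold. It passed in 7 of the 22 fits that left out 1 library each, with differences from 0.54 to 0.75 and limma adjusted p from 0.0223 to 0.119. Without aged rat 2532, whose CA1 library had the lowest Tac3 and the lowest interneuron marker mean, the difference was 0.54 (limma adjusted p = 0.119), and Tac3 in aged against young vehicle was -0.43 (limma adjusted p = 0.731). The number of all genes called in this CA1 comparison was 1302, and ran from 0 without rat 2532 to 3399 without aged rat 2411.

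In DG, Tac3 was higher in aged rats in value. It ran from 116 through 173 to 248 in young vehicle, from 131 through 182 to 290 in young LPS, and from 177 through 227 to 292 in aged vehicle. The groups overlapped. Aged minus young vehicle was 0.44 (SE 0.18, limma unadjusted p = 0.0228, adjusted p = 1.00). CA1 pyramidal markers were also higher in value in the aged DG libraries, 6 of 6 with a positive difference, a median of 0.80, none past the threshold and 0 at an unadjusted p below 0.05. Their summed level in DG ran from 1401 to 13855 in young vehicle and from 1625 to 15967 in aged vehicle, and no marker of the 6 was at 0. With the score of CA1 against granule markers in the fit, the Tac3 difference was 0.31 (limma adjusted p = 1.00), and without the 6 DG libraries with the lowest CA1 markers it was also 0.31. In bulk tissue, fewer cells of a type and less RNA per cell cannot be told apart.

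Adcyap1, the PACAP precursor, and Crh did not pass in any comparison. Adcyap1 in CA1 ran from 110 through 155 to 235 in young vehicle, from 87.1 through 154 to 254 in young LPS, and from 129 through 164 to 330 in aged vehicle. In DG it ran from 88.4 through 135 to 299, from 69.2 through 138 to 250, and from 88.3 through 104 to 142 in the same order. The groups overlapped in both regions. Aged minus young vehicle was 0.31 (SE 0.25, limma adjusted p = 0.523) in CA1 and -0.44 (SE 0.26, limma adjusted p = 1.00) in DG. The CA1 value was 0.16 (limma adjusted p = 0.890) without aged rat 2532 and 0.19 (0.721) without aged rat 2415.

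Crh stood near the lower limit of the data. Group medians were 19.9, 14.4 and 17.7 in CA1 and 15.9, 14.2 and 17.8 in DG, in young vehicle, young LPS and aged vehicle. With an SE of 0.25 to 0.36 per log2 difference, a change of modest size was not detectable for Crh at this depth.

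The granin family genes Vgf and Scg2 were abundant. Vgf in CA1 ran from 1333 through 1658 to 2133 in young vehicle, from 1463 through 1888 to 2597 in young LPS, and from 808 through 1467 to 1699 in aged vehicle. Young LPS libraries lay toward the top and aged ones toward the bottom, with overlap. Young LPS minus aged vehicle was 0.47 (SE 0.15, limma adjusted p = 0.0519), just short of the threshold, while edgeR (adjusted p = 0.0468) and DESeq2 (adjusted p = 0.0261) called it. LPS minus vehicle was 0.19 (SE 0.14, limma adjusted p = 0.663), and aged minus young vehicle was -0.28 (SE 0.15, limma adjusted p = 0.399). Without aged rat 2532, whose 808 was the lowest CA1 value, the age difference was -0.13 (limma adjusted p = 0.822) and young LPS minus aged vehicle 0.32 (0.145). Without young LPS rat 2404 the LPS difference was 0.12 (limma adjusted p = 0.910). In DG Vgf medians were 1013, 977 and 1106, and young LPS minus aged vehicle was -0.28 (SE 0.15, limma adjusted p = 0.573).

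Scg2 had the narrowest spread of the 10 genes in DG, with a within-group SD of 0.18 (median of all tested genes 0.26). In DG it ran from 6698 through 8805 to 10373 in young vehicle, from 6968 through 8766 to 9348 in young LPS, and from 6339 through 7211 to 8338 in aged vehicle. The aged rats lay toward the bottom of the young ranges and overlapped them. Aged minus young vehicle was -0.23 (SE 0.096, limma unadjusted p = 0.0236, adjusted p = 1.00), and young LPS minus aged vehicle was 0.23 (SE 0.096, limma unadjusted p = 0.0233, adjusted p = 0.468). The age difference was -0.15 without the 6 DG libraries with the lowest CA1 markers. In CA1 the Scg2 medians were 5423, 4531 and 4918, and LPS minus vehicle was -0.27 (SE 0.14, limma unadjusted p = 0.0691, adjusted p = 0.654). Without the 3 CA1 libraries with the lowest granule markers it was -0.14 (limma adjusted p = 0.730).

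Trhr, a G protein coupled receptor, was counted with 9 to 89 reads per library. In DG it ran from 36.9 through 42.8 to 53.6 normalized reads in young vehicle, from 9.31 through 36.7 to 70.3 in young LPS, and from 19.0 through 26.6 to 34.4 in aged vehicle. All aged libraries lay below all young vehicle libraries, while young LPS spanned both. Aged minus young vehicle was -0.71 (SE 0.29, limma unadjusted p = 0.0214, adjusted p = 1.00). In CA1 the aged rats lay toward the top instead: 19.1 through 32.4 to 48.1 in young vehicle, 8.08 through 25.7 to 46.5 in young LPS, and 35.9 through 39.4 to 52.5 in aged vehicle. Aged minus young vehicle in CA1 was 0.41 (SE 0.29, limma adjusted p = 0.473), and young LPS minus aged vehicle was -0.83 (SE 0.29, limma adjusted p = 0.0582), which DESeq2 called. Rat 2543 of the young LPS group had the lowest Trhr in both of its libraries.

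Whether a difference depended on region was tested on CA1 minus DG within each rat. For LPS, 0 of the 10 genes passed with limma (0.00683% of 14637 genes tested in both regions), 0 reached an unadjusted p below 0.05 (13% of all), and 0 had within-rat differences without overlap (0.0478% of all). For age, 0 of the 10 passed (0% of all genes), 3 reached an unadjusted p below 0.05 (Tac3, Adcyap1 and Trhr, against 5.21% of all), and 1, Trhr, had within-rat differences without overlap (0.0478% of all). For young LPS against aged vehicle, 2 of the 10 passed, Tac3 and Trhr (8.98% of all genes), and 1, Trhr, did not overlap (1.36% of all). The count tests were not run on this difference.

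For Trhr the regional difference of the age effect was the largest of the 10 in size. CA1 minus DG of aged minus young vehicle was 1.12 (SE 0.22, limma unadjusted p = 4.19e-05, adjusted p = 0.614), and 0.0285 adjusted with library weights. That of young LPS minus aged vehicle was -1.12 (SE 0.22, limma adjusted p = 0.0360). With no block for the rat it had the same size and missed the threshold (limma adjusted p = 0.0603). It passed in 15 of the 22 fits that left out 1 rat each, and without aged rat 2532 it was -0.98 (limma adjusted p = 0.0944). The call was also lost with the score of CA1 against granule markers in the fit (-1.02, limma adjusted p = 0.0702) and with no filter on low values (-1.12, 0.0605).

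For Tac3 the regional difference had the opposite sign. CA1 minus DG of aged minus young vehicle was -1.02 (SE 0.29, limma unadjusted p = 0.00215, adjusted p = 0.735), and that of young LPS minus aged vehicle was 0.99 (SE 0.29, limma adjusted p = 0.0446). The latter passed in 9 of the 22 fits without 1 rat and was 0.82 without rat 2532. It was lost with the marker score in the fit (0.83, limma adjusted p = 0.0743) and with no filter (0.99, 0.0716). Adcyap1 had 0.75 for age (SE 0.35, limma unadjusted p = 0.0442, adjusted p = 0.735), and Vgf 0.75 for young LPS against aged vehicle (SE 0.24, limma adjusted p = 0.0509).

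**Figure D3:**
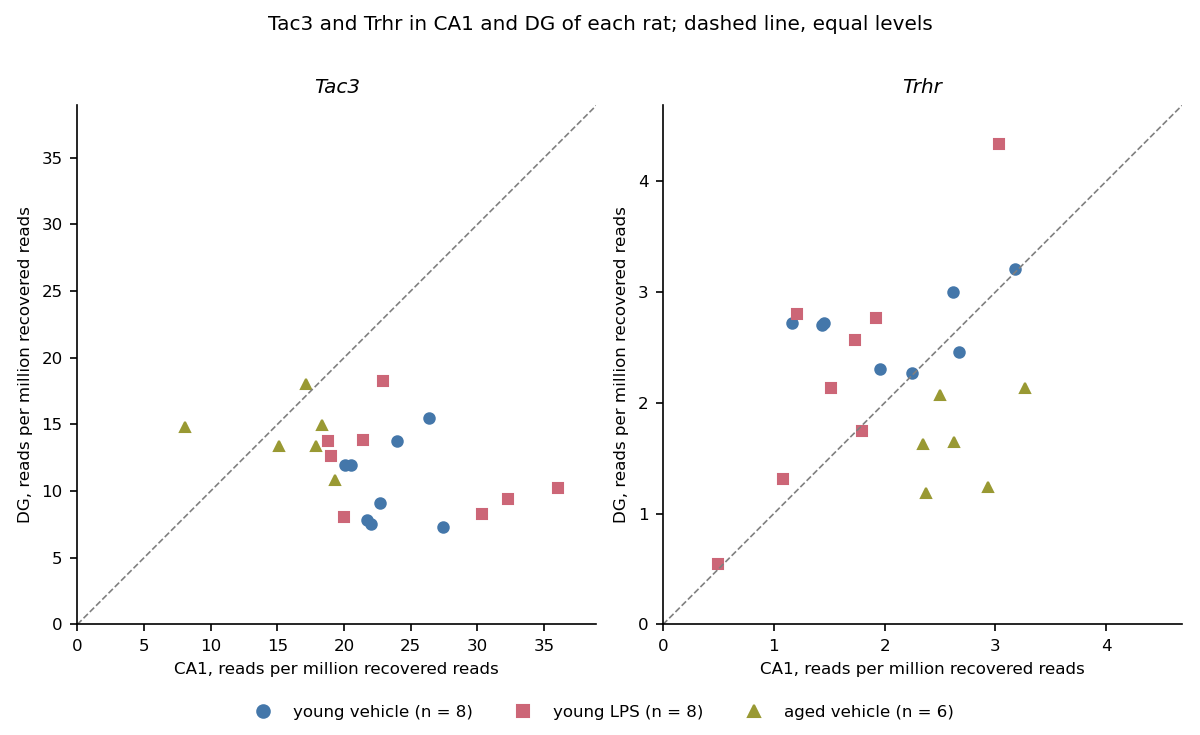
Tac3 (left) and Trhr (right) in each rat, as RPM of recovered reads in CA1 (horizontal axis) and DG (vertical axis), with a dashed line at equal levels. The 6 aged rats all lie below the line for Trhr, where 14 of 16 young rats lie above it. For Tac3, 2 aged rats lie above the line, rat 2420 close to it and rat 2532.

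Across rats, the CA1 and DG levels of the same gene were most alike for Trhr. Its group-centred levels had r = 0.70 over 22 rats (within-group permutation p = 0.00338, adjusted over 10 genes 0.0338) and rho = 0.415 (permutation p = 0.0561, adjusted 0.189). Without rats 2543 and 2573 r was 0.24, so its size over the 22 rats depends on those rats. Number series are the leading digits of the rats' numbers. Among the 8 rats of series 24, which holds neither of those rats, r was 0.56. Among the 10 of series 25, which holds both, it was 0.78. For the other 9 genes r lay between -0.51 (Pdyn) and 0.13 (Adcyap1), with adjusted permutation p of 0.151 or more.

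Pdyn and Penk in CA1 were lowest in the 3 libraries with the lowest granule cell markers. In the CA1 libraries of rats 2403, 2412 and 2527, where the granule marker mean was -2.01 to -0.86 on the log2 scale, Pdyn was 160 to 567 normalized reads, and in the other 19 it was 736 to 2281. Penk was 173 to 349 in the 3 and 443 to 834 in the 19. Scg2 overlapped narrowly, at 3023 to 3956 in the 3 and 3768 to 7163 in the 19. The share of all tested genes without overlap between these sets was not counted, so it is open whether Pdyn and Penk are unusual in this. Within the 19 libraries, whose marker means ran from -0.32 to 0.73, Pdyn had r = 0.49 (permutation p = 0.0414, adjusted over 10 genes 0.207; rho = 0.50, adjusted 0.223), and 0.50 without rats 2411 and 2572. Penk had r = 0.17 and Scg2 r = 0.25, with adjusted permutation p of 0.716 and 0.634. Cck had the opposite sign there, r = -0.62 (permutation p = 0.00885, adjusted 0.0885) and rho = -0.67 (adjusted 0.0365), and r = -0.51 without those same rats. All 8 granule markers were above 0 in CA1, with sums of 586 to 6980 normalized reads in single libraries.

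Vgf in DG moved with the CA1 pyramidal markers in the larger set of DG libraries. Within the 16 libraries with the higher marker mean it had r = 0.77 (permutation p = 0.00176, adjusted over 10 genes 0.0176) and rho = 0.81 (permutation p = 0.00049, adjusted 0.0049), and r = 0.79 without rats 2527 and 2571. The 6 with the lower mean were 3 young vehicle, 2 young LPS and 1 aged rat, and levels there were not centred on groups. With permutation over all 6 rats, Vgf had r = 0.92 (exact permutation p = 0.00972) and rho = 0.83 (exact permutation p = 0.0583). These values include differences between groups and are not like those of the 16. Within number series 24 (n = 8), whose libraries were all among the 16, Vgf had r = 0.78. Within series 25 (n = 10), which mixed libraries of both sets, it had r = 0.66. With the number series removed from both measures, r over all 22 libraries was 0.55 (permutation p adjusted over 40 relations 0.0550). Adcyap1 (r = 0.66) and Tac1 (r = 0.60) came next in the 16, each with an adjusted permutation p of 0.115. Tac3 had r = 0.38 (permutation p = 0.251) and rho = 0.36 (permutation p = 0.228) in the 16, and r = 0.59 there without rats 2527 and 2571. In the 6, again not centred, Tac3 had r = 0.28 and rho = -0.09, with exact permutation p of 0.601 and 0.919. Its DG values were 116 to 177 in the 6 and 124 to 292 in the 16.

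**Figure D4:**
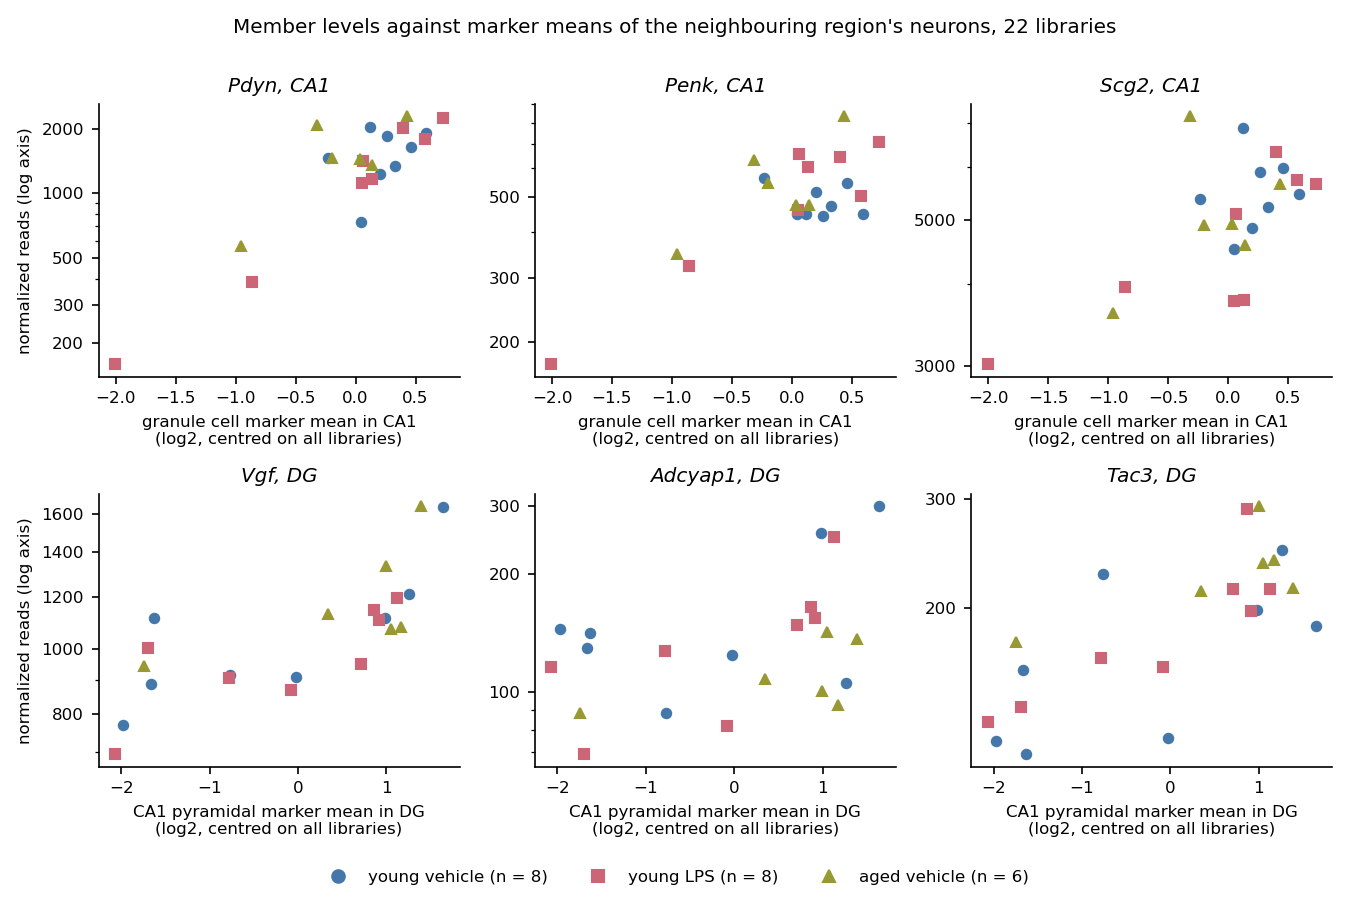
Normalized reads (vertical log axes) of Pdyn, Penk and Scg2 in CA1 against the granule cell marker mean there (top), and of Vgf, Adcyap1 and Tac3 in DG against the CA1 pyramidal marker mean there (bottom), 1 point per library. The 3 CA1 libraries at the left, from -2.01 to -0.86, hold the lowest Pdyn and Penk values, and Vgf in DG is higher toward the right.

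Interneuron markers in CA1 moved with Tac3 and Vgf. Against the mean of 14 such genes (Gad1, Gad2 and Dlx5 among them), group-centred Tac3 had r = 0.68 (permutation p = 0.0047, adjusted over 40 relations 0.0233) and rho = 0.56 (adjusted 0.0477). It was 0.44 without rats 2531 and 2532, 0.76 in number series 24 (n = 8) and 0.71 in series 25 (n = 10). Vgf had r = 0.70 (adjusted 0.0277; rho = 0.53, adjusted 0.0499), 0.49 without the same rats, 0.23 in series 24 and 0.86 in series 25. Scg2 had the opposite sign, r = -0.54 (adjusted 0.0451; rho = -0.54, adjusted 0.0483), -0.40 without those rats, and -0.36 (adjusted 0.184) with scaling by all recovered reads. Pdyn had r = -0.20 (adjusted 0.478) and rho = -0.49 (adjusted 0.0499). The summed interneuron level in CA1 was 10323 to 13559 in young vehicle, 9902 to 13070 in young LPS and 12119 to 14818 in aged vehicle, and no marker of the 14 was at 0. In DG, Crh (6 to 31 reads) had r = 0.58 (permutation p adjusted over 40 relations 0.0179) and rho = 0.56 (adjusted 0.0477). It was 0.57 without rats 2410 and 2728, 0.18 in series 24 and 0.61 in series 25. Vgf in DG had r = 0.57 (adjusted 0.0451) and rho = 0.50 (adjusted 0.0694), and r = 0.33 without those 2 rats.

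Between the genes themselves, over the 22 group-centred libraries of a region and as a description, the highest likeness in CA1 was that of Penk and Pdyn (r = 0.89), followed by Pdyn and Scg2 (0.84) and Penk and Scg2 (0.69). Vgf and Scg2 had r = -0.66 in CA1 and -0.45 in DG. Both carry the element TGACGTCA in the sequences above, and a link of the element to these values was not tested. In DG, Cck and Tac1 had 0.77, Penk and Scg2 0.69, and Penk and Pdyn 0.61. Libraries share depth and dissection across genes, so these values hold both.

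Genes with the most similar pattern over the 22 libraries were named by the same measure. For CA1 Pdyn they were Gpc3 (0.96), Mgam (0.96) and Prox1 (0.95), and for CA1 Penk Nhlh1 (0.90), C1ql2 (0.89) and Pdyn. Prox1 and C1ql2 are granule markers of the list used above. CA1 Tac3 was closest to Alkbh2 (0.84), the interneuron transcription factor gene Dlx5 (0.82) and AC136588.2 (0.82), and DG Tac3 to Cd3e (0.84), Galnt18 (0.81) and the CA1 marker Wfs1 (0.79). CA1 Scg2 was closest to Zcchc12 (0.93), Map2k1 (0.91) and Kctd4 (0.91), CA1 Vgf to Elfn1 (0.93), Fam131c (0.90) and Rab3b (0.90), and DG Vgf to Hrh3 (0.93), RGD1311739 (0.86) and Coro6 (0.83). CA1 Cck was closest to the mitochondrial genes Eci1 (0.88), Mpc2 (0.87) and Mt-co3 (0.87). CA1 Trhr was closest to Cep97 (0.86), Ube2f (0.83) and Gnl3l (0.83), and DG Trhr to Tgfb2, Neu2 and Abcg3l3 (each 0.81).

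Genes around the peptides were counted by list. Of 11 tested genes of granins and prohormone processing, 1 was lower in CA1 of young LPS than of aged vehicle (5.24% of all genes were called lower) and 0 were higher. It was Pcsk1, the prohormone convertase that starts the cutting of many precursors, with 200 through 254 to 332 normalized reads in young LPS and 260 through 371 to 992 in aged vehicle. The groups overlapped between 260 and 332. Its difference was -0.71 (SE 0.20, limma adjusted p = 0.0490), in DG it was 0.31 (SE 0.12, limma adjusted p = 0.428), and the difference between regions passed at -1.02 (SE 0.24, limma adjusted p = 0.0375). Without aged rat 2532 limma called 0 genes in this CA1 comparison and 1 gene, a positive difference, for the difference between regions, so both Pcsk1 calls were lost. In the LPS and age comparisons 0 of the 11 passed in either region.

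Of 14 activity-regulated genes, 3 were higher in CA1 of young LPS than of aged vehicle (3.49% of all genes were called higher) and 0 were lower. Without aged rat 2532 none of the 3 calls remained, as limma then called 0 genes. Nr4a1, an orphan nuclear receptor gene, ran from 830 through 1425 to 2359 in young LPS and from 525 through 700 to 852 in aged vehicle, a difference of 1.04 (SE 0.19, limma adjusted p = 0.0490). Arc, a synaptic scaffold gene, had 1.01 and Egr1, a zinc finger transcription factor gene, 0.59, each with a limma adjusted p of 0.0490. The list's median was 0.39, and that of all genes 0.02. Of the 14, 0 passed for LPS or age in either region, and the median for LPS in CA1 was 0.23.

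Receptors of these peptides and other peptide precursors had no calls. Of 13 tested receptor and binding protein genes, 0 passed in any comparison in either region, and the smallest p was that of Oprk1, the dynorphin receptor, in CA1 between young LPS and aged vehicle (-0.92, SE 0.40, limma adjusted p = 0.102). Of 11 tested other precursors, 0 passed. Trh, which encodes the ligand precursor of the Trhr receptor, had -0.73 for LPS in CA1 (SE 0.38, limma adjusted p = 0.654), Nmb had -1.15 for age in CA1 (SE 0.45, limma adjusted p = 0.393), and Vip had -0.49 between young LPS and aged vehicle in CA1 (SE 0.17, limma adjusted p = 0.0563). Pcsk1n, Vipr1, Trhr2 and Cort were not analysed here.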

How the data were processed

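For each region there is 1 deposited table of normalized read counts, a signal scaled by library, with 20003 rows (CA1) and 20050 rows (DG). Per the submitters' processing notes, STAR, Partek, DESeq2 and rn6 were used; for versions, annotation and strand, nothing is given in the sources used here. Polyadenylated RNA was sequenced with an Ion Torrent kit, per the labels' protocols. Each library's values are multiples of what 1 read is worth, and division by it returned whole numbers, within 0.1, in 99.7% (CA1) and 99.98% (DG) of cases; 240 and 11 rows held fractions. Counting error covers the sampling of reads only.

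Genes at 10 or more in at least 6 libraries (14915 in CA1, 14904 in DG) were tested with limma 3.58.1 (R 4.3.3, trend and robust options) on log2(value + 1), 3 groups in 1 fit, with Benjamini-Hochberg adjustment over all genes and a threshold of 0.05. This scale understates changes of low genes. The rat was the block for CA1 minus DG; that pairing comes from the rat numbers in the labels. As alternatives, edgeR 4.0.16 and DESeq2 1.42.0 were run on the recovered reads. They called 0 and 1 genes for LPS, 2 and 7 for age, and 2144 and 3263 for young LPS against aged vehicle in CA1. In DG these counts were 2 and 3, 2 and 4, and 1 and 22. Correlations used levels centred on group means and two-sided tests with 100000 permutations within groups. Samples that fell into separate sets by a marker mean were correlated within each set, a split made after seeing the data. The number series values of Vgf in DG were not split in this way. In the set of 6 DG libraries, levels were not centred, and the tests called exact permuted all 6 rats across groups. The fits were tested on simulated data.

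The 10 genes, 4 lists of related genes and 12 marker lists were chosen with earlier results of these data known. Named genes are the 10, up to 3 called genes of each related list per direction and comparison (otherwise the one with the smallest p, of which a selection is given), and the 3 genes most correlated with a member, given for members in the region where they are discussed.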

Additional observations from a re-analysis of the deposited data

Results flagged for a closer look

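Values of 4 single libraries stood far from the rest of their group, of 60 groups tested; chance sets apart about 1 group in 20. Penk in DG of aged rat 2532 was 427 normalized reads, where the next aged library had 763. Cck in CA1 of the same rat was 5194, above the next at 3479. Tac1 in DG of young vehicle rat 2410 was 45.3, above the next at 23.6, and Crh in CA1 of young vehicle rat 2572 was 37.3, above the next at 23.3.

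A difference between regions passed its own test for 2 genes, both between young LPS and aged vehicle rats. For Tac3, CA1 minus DG was 0.99 on the log2 scale, and for Trhr it was -1.12. Both were tested within rats with limma.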

How the results depend on the processing

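Of the 10 members, the number past the threshold was 0 for LPS in CA1, in DG and for their difference in every fit run. For young LPS against aged vehicle in CA1 it was 1, and became 4 with library weights, 3 with DESeq2, 2 with edgeR, 2 with a mean of at least 50, 2 with the number series in the fit, and 0 with no filter, without the trend and robust options, or with only the compared groups. It was also 0 in fits chosen after seeing the data, without CA1 libraries 2403, 2412 and 2527 or without 2526 and 2532. Leaving out 1 library gave 0 to 3. All genes called in that comparison ranged from 0 to 3496, against 1302. For the difference between regions in the same comparison, 2 members passed, 1 with the number series, 0 with no filter or the dissection score in the fit, and 0 to 3 without 1 rat; all genes called ranged from 0 to 2551, against 1315. With no replicate block it was 2, as with the block, but Trhr was replaced by Vgf. Library weights gave 1 member, Tac3, for age in CA1, and 1, Trhr, for the regional difference in age. In the other counts the block and the remaining settings changed no call.

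Tac3 in CA1 between young LPS and aged vehicle lost its call without any 1 of aged rats 2415, 2420, 2531 and 2532, young LPS rats 2404, 2408, 2527, 2543 and 2717, or young vehicle rats 2410, 2526, 2571, 2722, 2728 and 2731. Its regional difference lost it without rats 2404, 2408, 2415, 2420, 2527, 2531, 2532, 2543, 2571, 2573, 2722, 2728 or 2731, and that of Trhr without 2404, 2408, 2415, 2420, 2531, 2532 or 2543. The cause was not tested. Of 3246 recomputed values of single members, 3157 stayed on their side of the threshold, 34 passed newly, 55 lost it and 0 called values changed sign. Without a call, 139 values changed sign, in 43 of 140 results, with reported values up to 0.56 in size. Trhr, Crh and Tac1 in DG, with under 100 reads each, have the least precision.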
